A study of Mus musculus with 15 samples.

Results

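The pore subunits of voltage-gated calcium channels were described in sorted mouse islet cells. They were the 10 genes of the deposited table with the symbols Cacna1a, Cacna1b, Cacna1c, Cacna1d, Cacna1e, Cacna1f, Cacna1g, Cacna1h, Cacna1i and Cacna1s, of 38283 genes in all, and each symbol matched 1 row. The pore subunit (alpha 1 subunit) forms the calcium-selective channel itself and senses the membrane voltage. High-voltage channels open on strong depolarisation and comprise the L-type channels (Cacna1c, Cacna1d, Cacna1f and Cacna1s), the P/Q-type (Cacna1a), the N-type (Cacna1b) and the R-type (Cacna1e), whereas the T-type channels (Cacna1g, Cacna1h and Cacna1i) open at more negative voltages and inactivate quickly. In islet endocrine cells, calcium entering through such channels triggers the fusion of hormone granules.

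RNA was sequenced from alpha cells (n = 5), beta cells (n = 4) and delta cells (n = 6) of mice of the C57BL/6 strain. Alpha and beta cells came from Glu-Venus mice, in which the proglucagon promoter drives the fluorescent protein Venus in alpha cells. Beta cells were the Venus-negative cells of a gate on scatter and autofluorescence, with no reporter of their own. Delta cells came from Sst-CreXROSA26EYFP/EYFP mice, in which Cre under the somatostatin promoter switches on the reporter EYFP and also marks cells descended from Sst-expressing cells. No ages or treatments are given in the labels. The delta cells thus had another mouse line than the alpha and beta cells, and the effects of cell type and line cannot be told apart. The islets of several mice were pooled for each sort, so that p-values measure the spread between pools. In bulk samples, fewer cells expressing a gene and less RNA per cell cannot be told apart.

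Expression is given as FPKM, fragments divided by the length of the transcript and by the sample's mapped fragments. The cell labels held in most marker genes. Gcg, which encodes glucagon, was lower in beta and in delta than in alpha cells, and 5 of 5 beta cell markers were higher in beta than in either other type. Of 3 delta cell markers, Sst and Hhex were higher in delta cells than in both. The third, Rbp4, was higher than in beta cells but did not pass against alpha cells (log2 difference 1.09, adjusted p = 0.378, limma). Ppy, the hormone of PP cells, ranged from 17728 to 41392 FPKM in alpha and from 10857 to 48600 FPKM in delta samples but from 16.9 to 98.1 FPKM in beta samples. The FPKM of 85 ribosomal protein genes, added up, divided the samples into 2 sets, with sums above 50000 in delta samples 1 and 2, beta sample 2 and alpha samples 1, 2 and 3. The sets are not a labelled batch, and values within them are given beside the main results. Read totals could be inferred from steps of single reads in 6 samples (7.5 M to 30.5 M reads) and are unknown in the other 9, beta samples included.

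The T-type genes share a difference in the pore with one another. In each of the 10 coding sequences a script found an in-frame codon for glutamate or aspartate followed by glycine and tryptophan codons, once in the first repeat and once in the third repeat of the channel, where the acidic residue lines the selectivity filter. The first match was a glutamate codon in all 10 genes. The second is printed for the genes with the highest levels and for the T-type genes, because this codon separates the channel types. The codon in capitals was GAG or GAA, for glutamate, in the 7 high-voltage genes and GAT, for aspartate, in the 3 T-type genes. The sequences were read from the longest coding transcripts of GENCODE M21 (GRCm38).

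Cacna1h: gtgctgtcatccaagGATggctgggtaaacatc

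Cacna1g: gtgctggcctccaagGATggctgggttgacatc

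Cacna1i: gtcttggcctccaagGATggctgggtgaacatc

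Cacna1a: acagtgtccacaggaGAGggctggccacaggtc

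Cacna1b: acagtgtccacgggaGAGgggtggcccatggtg

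Cacna1d: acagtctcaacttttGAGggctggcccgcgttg

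Cacna1c: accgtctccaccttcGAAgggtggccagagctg

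Counted from the first base of the start codon, the capitals begin at position 4543 of the Cacna1h coding sequence, 4459 of Cacna1g, 4015 of Cacna1i, 4231 of Cacna1a, 4075 of Cacna1b, 3361 of Cacna1d and 3418 of Cacna1c.

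Cacna1h, the T-type pore subunit Cav3.2, was the member with the clearest difference between cell types. It was expressed in every delta sample and was close to 0 in alpha and beta cells. The gene lies on the minus strand at chr17:25374285-25433783 (GRCm38). In delta samples the lowest value was 11.3, the median 20.2 and the highest 25.8 FPKM. Alpha samples 1 to 5 had 0.0183, 0.352, 0.0110, 0.138 and 0.280 FPKM. Beta samples 1 to 4 had 0.0305, 0.106, 0.0306 and 0 FPKM. The lowest delta sample thus lay above all alpha and beta samples, while the alpha and beta ranges overlapped. The means were 19.7 ± 5.88 FPKM in delta (SD, n = 6), 0.160 ± 0.153 in alpha (n = 5) and 0.0419 ± 0.0454 in beta cells (n = 4).

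**Figure D1:**
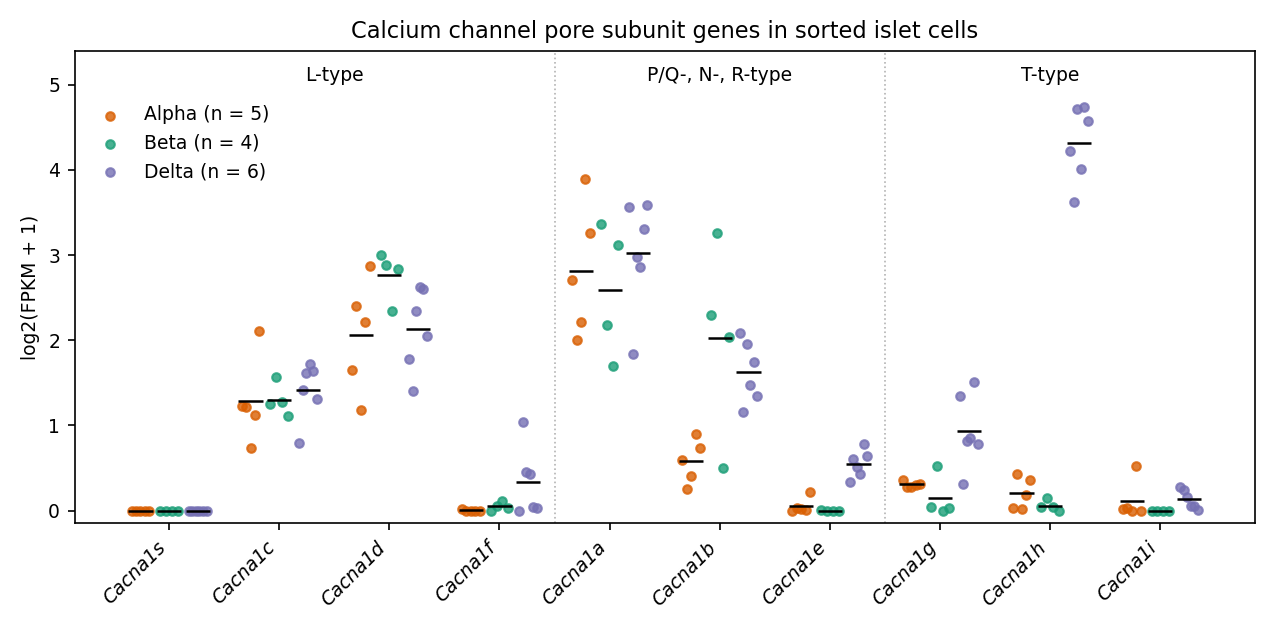
Expression of the 10 pore subunit genes as log2(FPKM + 1), with 1 point per sample, coloured by cell type, and a black bar for the mean of each group. The 6 delta samples of Cacna1h lie above every alpha and beta sample, and the groups overlap for Cacna1a, Cacna1c and Cacna1d.

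On the log2(FPKM + 1) scale, Cacna1h in delta cells exceeded that in alpha cells by 4.11 (SE 0.251, 95% interval 3.58 to 4.64, adjusted p = 5.06e-08, limma) and that in beta cells by 4.26 (SE 0.267, 95% interval 3.69 to 4.82, adjusted p = 7.65e-08, limma). Beta and alpha cells differed by -0.15 (95% interval -0.74 to 0.44), which did not pass the test (adjusted p = 0.806, limma). This scale understates differences from values near 0. As log2 ratios of mean FPKM, the differences were 6.94 against alpha and 8.87 against beta cells, and these rest on the small alpha and beta cell means. Both calls were kept in all 27 alternative fits, including each of 15 fits that left out 1 sample. Within the samples with low ribosomal protein values the means were 22.2 FPKM in delta (n = 4), 0.209 in alpha (n = 2) and 0.0204 in beta cells (n = 3), and within the others 14.5 (n = 2), 0.127 (n = 3) and 0.106 FPKM (n = 1). The difference thus had the same direction in both sets.

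The low Cacna1h values in alpha and beta cells were set beside those of the delta cell genes Sst, which encodes somatostatin, and Hhex, a transcription factor that maintains delta cells. Mean Cacna1h was 0.813% of its delta cell mean in alpha and 0.213% in beta cells. For Sst these values were 0.992% and 0.101%, and for Hhex 0.991% and 0.155%. These alpha cell means lay close together, while single samples matched in part only. As percentages of the delta cell means, Cacna1h in alpha samples 1 to 5 was 0.0930, 1.79, 0.0562, 0.704 and 1.42. Sst in the same order was 0.721, 1.10, 1.49, 0.698 and 0.958, and Hhex 0.458, 3.50, 0.491, 0.0672 and 0.439. Alpha sample 2 was highest for both Cacna1h and Hhex, whereas alpha sample 3 was highest for Sst and lowest for Cacna1h. Beta sample 2 was the highest beta sample for all 3 genes, at 0.541% for Cacna1h, 0.283% for Sst and 0.434% for Hhex. A further delta cell marker, Rbp4, which encodes a retinol-binding protein, was high in alpha as well, with means of 655 FPKM in alpha, 4.71 in beta and 1426 FPKM in delta cells. The part of carried-over delta cell RNA in the Cacna1h values was not tested. In alpha sample 2, with the highest Cacna1h of the alpha and beta samples, 1 read on the gene was worth 0.0167 FPKM.

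**Figure D2:**
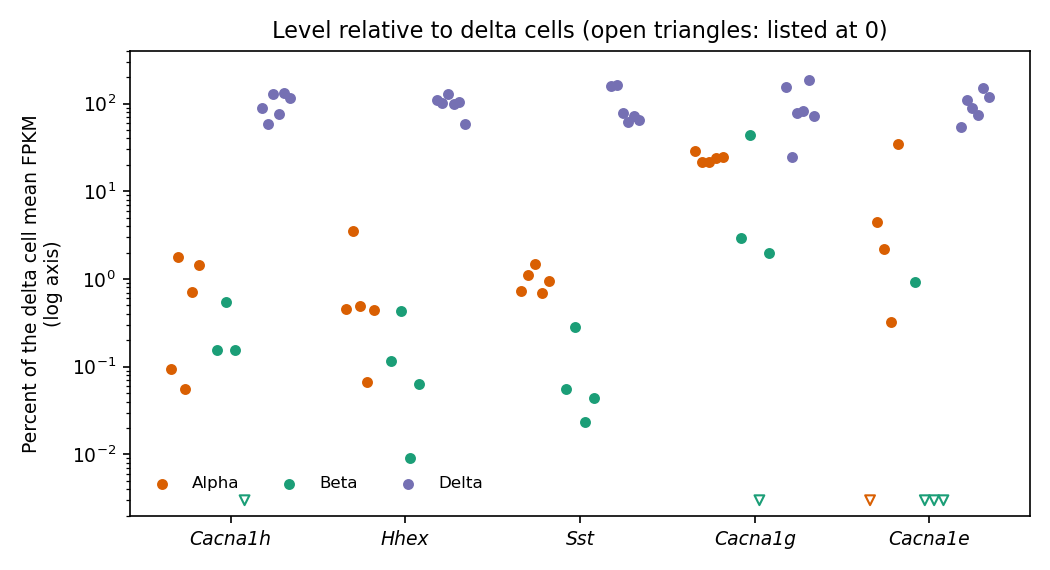
FPKM of each sample as a percentage of the mean of the 6 delta samples, on a log axis, for Cacna1h, Hhex, Sst, Cacna1g and Cacna1e. Open triangles at the bottom mark samples listed at 0. Alpha and beta samples lie at most at 1.79% for Cacna1h, 3.50% for Hhex and 1.49% for Sst, whereas Cacna1g reaches 44.1% in beta sample 2.

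Few stretches as long as a read are shared between Cacna1h and other genes. Of the 9845 distinct 50-base stretches of its annotated transcripts, 1.12% also occur in another gene, either Cacna1i or Tpsg1, and none occur in Cacna1g. Tpsg1, a mast cell tryptase gene whose exons overlap those of Cacna1h, was listed at 0 in every alpha and every beta sample and reached 0.619 FPKM at most in delta samples. The longest stretch shared by the Cacna1g and Cacna1h coding sequences is 41 bases and lies around the glutamate codon of the first repeat. It is printed with 30 bases on each side to show how alike these genes are there, with the 6 bases that differ in capitals. The printed window begins at position 1000 in Cacna1g and at position 1072 in Cacna1h of the coding sequence.

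Cacna1g: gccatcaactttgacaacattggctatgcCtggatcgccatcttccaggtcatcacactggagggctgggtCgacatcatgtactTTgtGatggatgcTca

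Cacna1h: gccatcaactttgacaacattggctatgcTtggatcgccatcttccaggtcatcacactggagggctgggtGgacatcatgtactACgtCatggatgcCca

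The other T-type genes were low. Cacna1g (Cav3.1; minus strand, chr11:94408391-94474198) ranged from 0.242 to 1.86 FPKM in delta samples with a median of 0.789. Alpha samples 1 to 5 had 0.288, 0.212, 0.216, 0.234 and 0.243 FPKM, and beta samples 1 to 4 had 0.0289, 0.437, 0 and 0.0197 FPKM. All delta samples but sample 2 lay above every alpha and beta sample. The delta cell mean of 0.990 ± 0.597 FPKM lay just under the limit of 1 FPKM in at least 1 cell type that a gene had to pass to be tested. When all genes with a value above 0 were fitted, Cacna1g was higher in delta cells than in beta cells by 0.79 on the log2(FPKM + 1) scale (adjusted p = 0.0206, limma), whereas 0.63 against alpha cells did not pass (adjusted p = 0.075, limma). Leaving out delta sample 2, 3, 4 or 6 brought the gene over the limit, and the difference from beta cells passed in 1 of these 4 fits, the one without delta sample 2 (adjusted p from 0.0303 to 0.0924, limma).

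Cacna1i (Cav3.3; plus strand, chr15:80287238-80398279) was listed at 0 in all 4 beta samples and in alpha samples 3 and 5. It ranged from 0.00626 to 0.215 FPKM in delta samples, with a median of 0.0780. The highest value of any sample was 0.437 FPKM in alpha sample 4, so that alpha and delta samples overlapped. Its means were 0.0935 ± 0.192 FPKM in alpha and 0.0989 ± 0.0861 FPKM in delta cells, and no difference passed in the fit of all genes (adjusted p = 0.452 for delta against beta cells, limma).

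The T-type genes together made up most of the summed pore subunit FPKM in delta cells but not in the other cells. Their share of the sum over all 10 genes was 56.1 ± 4.26% in delta cells, ranging from 49.6% to 61.0%. It was 3.95 ± 1.35% in alpha cells, from 2.68% to 6.21%, and 0.834 ± 1.17% in beta cells, from 0.109% to 2.58%. Cacna1h alone made up 94.8 ± 2.38% of the T-type sum and 53.3 ± 4.77% of the whole sum in delta cells. The summed T-type level was 20.8 ± 6.17 FPKM in delta, 0.492 ± 0.230 in alpha and 0.163 ± 0.254 FPKM in beta cells. The L-type genes summed to 5.63 ± 1.83 FPKM in delta, 5.09 ± 2.89 in alpha and 7.42 ± 1.32 FPKM in beta cells, and the P/Q-, N- and R-type genes to 10.4 ± 3.64, 7.48 ± 4.72 and 9.69 ± 4.79 FPKM in the same order. These sums are given as descriptions without a test.

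**Figure D3:**
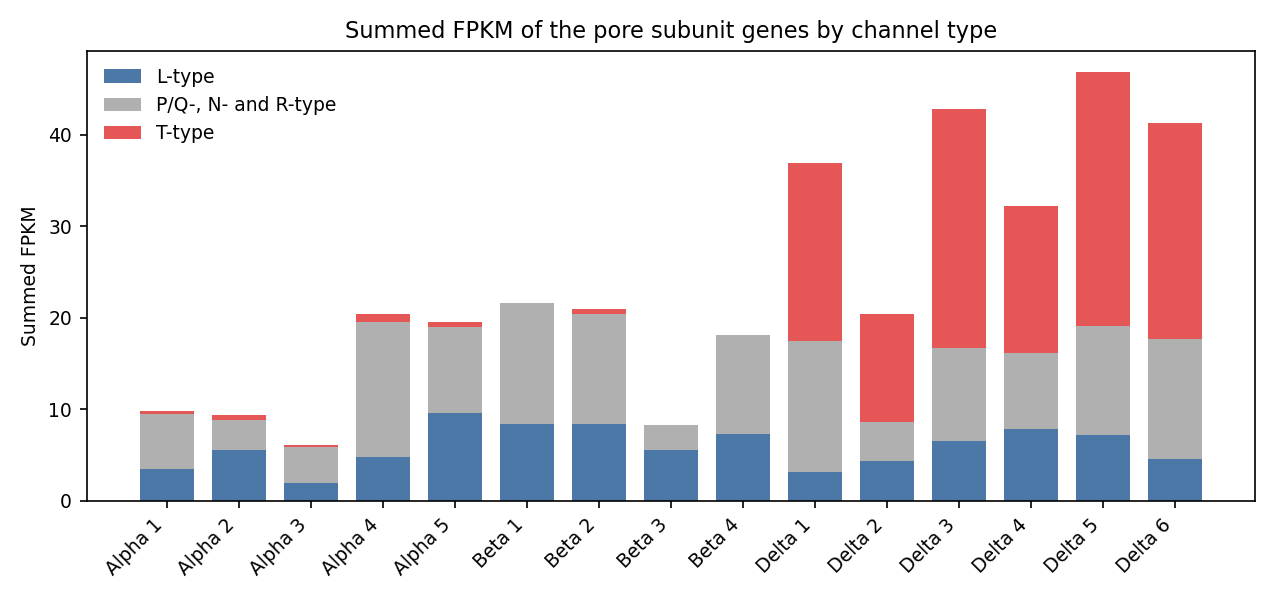
Summed FPKM of the L-type genes (blue), the P/Q-, N- and R-type genes (grey) and the T-type genes (red) in each of the 15 samples. The red part makes up 49.6% to 61.0% of the bar in delta samples and at most 6.21% in alpha and beta samples.

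Cacna1a and Cacna1b, the P/Q- and N-type pore subunits, carry the calcium current at many nerve terminals and lie at chr8:84388440-84640246 (plus strand) and chr2:24603887-24763152 (minus strand). Cacna1a was present in every sample. Alpha samples 1 to 5 had 5.54, 3.00, 3.66, 13.9 and 8.55 FPKM, beta samples 1 to 4 had 9.33, 3.53, 2.25 and 7.67 FPKM, and delta samples ranged from 2.56 to 11.01 FPKM with a median of 7.89. The groups overlapped throughout, and 2.50% of the 50-base stretches of Cacna1a are shared with the overlapping gene Gm16183. No difference in Cacna1a passed the test, and the 95% intervals allowed log2 differences from -1.24 to 0.79 for beta against alpha, from -0.71 to 1.12 for delta against alpha and from -0.55 to 1.41 for delta against beta cells (adjusted p = 0.833, 0.881 and 0.585, limma).

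Cacna1b was low in alpha cells. Alpha samples 1 to 5 had 0.510, 0.193, 0.331, 0.870 and 0.668 FPKM. Beta samples 1 to 4 had 3.91, 8.57, 0.420 and 3.11 FPKM, and delta samples ranged from 1.23 to 3.23 FPKM with a median of 2.07. Every delta sample and 3 of the 4 beta samples lay above all alpha samples, while beta sample 3 lay among them. The means were 0.514 ± 0.268 FPKM in alpha, 4.00 ± 3.39 in beta and 2.17 ± 0.788 FPKM in delta cells.

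Beta cells had more Cacna1b than alpha cells, by 1.44 on the log2(FPKM + 1) scale, at the edge of the threshold (SE 0.425, 95% interval 0.54 to 2.35, adjusted p = 0.049, limma). This call was kept in 6 of 27 alternative fits and in 1 of the 15 that left out a sample, the fit without beta sample 3 (adjusted p = 0.00226, limma). Leaving out any other sample gave adjusted p-values from 0.0536 to 0.127, and a replicate block in the model gave 0.0874. The F-test across the 3 types gave an adjusted p of 0.053 for the gene (limma). Delta cells were 1.04 above alpha cells on the same scale, with no overlap between samples (95% interval 0.23 to 1.86, adjusted p = 0.14, limma). This difference passed in a fit of alpha and delta cells alone (adjusted p = 0.0324) and without beta sample 3 (adjusted p = 0.0345). Delta and beta cells differed by -0.40 (95% interval -1.27 to 0.47, adjusted p = 0.563). Within the samples with low ribosomal protein values, the Cacna1b means were 0.769 FPKM in alpha, 2.48 in beta and 2.13 FPKM in delta cells, and within the others 0.344, 8.57 (1 sample) and 2.23 FPKM.

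Cacna1e, the R-type pore subunit (minus strand, chr1:154390731-154884501), was at low levels and differed between delta cells and the others. Delta samples ranged from 0.258 to 0.717 FPKM with a median of 0.471. Alpha samples 1 to 5 had 0, 0.0212, 0.0102, 0.00153 and 0.163 FPKM, and only beta sample 1 was above 0 among beta samples, at 0.00437 FPKM. No alpha or beta sample reached the lowest delta sample. The gene stayed under the limit of 1 FPKM in every type and was tested only in the fit of all genes, where delta cells were higher than alpha cells by 0.50 (adjusted p = 0.00061, limma) and than beta cells by 0.55 on the log2(FPKM + 1) scale (adjusted p = 0.000367, limma). Of its 25490 distinct 50-base stretches, 0.734% also occur in other genes, a long list with Adcy8 as a single entry. Its alpha cell mean was 8.29% of the delta cell mean and its beta cell mean 0.231%.

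Cacna1d and Cacna1c, the L-type pore subunits Cav1.3 and Cav1.2 that carry current in endocrine, neuronal and cardiac cells, were present in every sample. Cacna1d (minus strand, chr14:30039939-30491455) had 7.01, 6.37, 4.08 and 6.14 FPKM in beta samples 1 to 4. Alpha samples 1 to 5 had 2.13, 4.28, 1.27, 3.64 and 6.30 FPKM, and delta samples ranged from 1.64 to 5.18 FPKM with a median of 3.62. The beta cell mean of 5.90 ± 1.26 FPKM was above those of alpha (3.53 ± 1.96) and delta cells (3.59 ± 1.43), but samples of all types overlapped. Of the 50-base stretches of Cacna1d, 4.18% are shared with the overlapping gene Chdh, which stayed at or below 0.881 FPKM. The log2 difference was 0.70 for beta against alpha (95% interval -0.08 to 1.49, adjusted p = 0.271, limma), while delta against beta cells gave -0.63 (95% interval -1.38 to 0.12, adjusted p = 0.264, limma). The latter passed after quantile normalization, at -1.07 (adjusted p = 0.0236, limma). Delta and alpha cells differed by 0.07 (95% interval -0.63 to 0.78, adjusted p = 0.963, limma).

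Cacna1c (minus strand, chr6:118587240-119196418) had means of 1.57 ± 1.02 FPKM in alpha, 1.49 ± 0.345 in beta and 1.73 ± 0.575 FPKM in delta cells. Alpha samples lay between 0.664 and 3.33 FPKM, beta samples between 1.16 and 1.97 FPKM and delta samples between 0.735 and 2.31 FPKM, and the groups overlapped. The log2 differences of 0.02, 0.14 and 0.11 for beta against alpha, delta against alpha and delta against beta cells had 95% intervals of -0.63 to 0.67, -0.45 to 0.72 and -0.51 to 0.74 (adjusted p = 1, 0.876 and 0.84, limma).

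**Figure D4:**
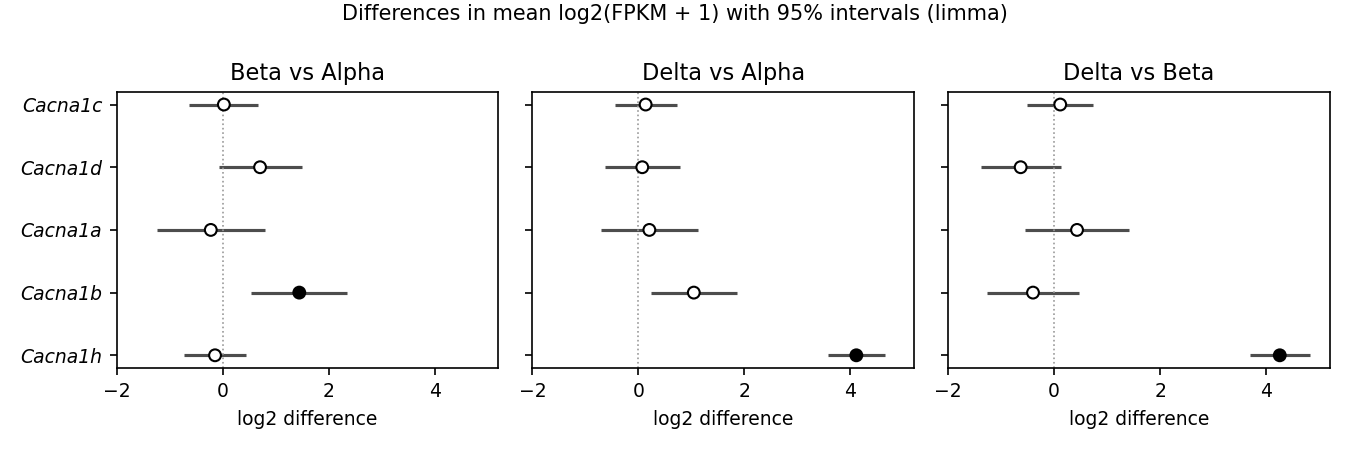
Differences of mean log2(FPKM + 1) between cell types for the 5 pore subunit genes above the limit on low values, with 95% intervals from limma. Filled points passed an adjusted p of 0.05: Cacna1h in both comparisons with delta cells and Cacna1b for beta against alpha cells.

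The remaining L-type genes were at or near 0. Cacna1f, the retinal pore subunit (plus strand, chrX:7607083-7635196), was above 0 in alpha sample 1 alone among alpha samples, at 0.0139 FPKM, and reached 0.0824 FPKM in beta sample 3. Delta samples ranged from 0 to 1.07 FPKM. Delta samples 2, 3 and 4 had 1.07, 0.365 and 0.353 FPKM, and the others at most 0.0287 FPKM. Its differences did not pass in the fit of all genes (limma adjusted p = 0.33 between delta and alpha and 0.347 between delta and beta cells). Cacna1s, the skeletal muscle pore subunit (plus strand, chr1:136052750-136119822), was listed at 0 in all 15 samples, and so was given no test.

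Of the 10 genes, 5 passed the filter on low values: Cacna1a, Cacna1b, Cacna1c, Cacna1d and Cacna1h. Cacna1h passed it through delta cells alone and Cacna1b through beta and delta cells, so that these genes had to differ to some degree. In the F-test across cell types Cacna1h was called, where 16.0% of the 14405 genes tested were called. For beta against alpha cells 1 member was called, Cacna1b, against 7.66% of all genes tested (2.84% higher and 4.82% lower in beta cells). For delta against alpha cells Cacna1h was called, against 6.81% of all genes (5.33% higher and 1.48% lower in delta cells). For delta against beta cells Cacna1h was again the called member, against 14.7% of all genes (11.7% higher and 2.99% lower in delta cells). In the fit of all 23792 genes with a value above 0, Cacna1e and Cacna1h were called for delta against alpha cells (4.71% of all genes), Cacna1e, Cacna1g and Cacna1h for delta against beta cells (9.08%) and no member for beta against alpha cells (4.07%), where Cacna1b missed the threshold with an adjusted p of 0.0862. The comparisons share samples and are not independent of one another.

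The order of the levels differed between cell types. In delta cells Cacna1h ranked first and exceeded Cacna1a in 6 of 6 samples, by a ratio from 1.63 to 4.43, and the ranges of these neighbours did not overlap. Cacna1d, Cacna1b, Cacna1c, Cacna1g, Cacna1e, Cacna1f and Cacna1i followed Cacna1a, and the ranges of each neighbouring pair overlapped. Within samples, Cacna1a exceeded Cacna1d in 6 of 6 delta samples, and each later pair kept its order in 4 or 5 of 6. In alpha cells Cacna1a ranked first, followed by Cacna1d, Cacna1c and Cacna1b, with overlap between the ranges of all neighbours. Within alpha samples, Cacna1a exceeded Cacna1d in 4 of 5, and Cacna1d exceeded Cacna1c in 5 of 5. Cacna1c exceeded Cacna1b in 5 of 5. In beta cells Cacna1d (5.90 FPKM) and Cacna1a (5.69 FPKM) ranked first and second with overlapping ranges, followed by Cacna1b and Cacna1c, and the lowest Cacna1c value lay above the highest of the next gene, Cacna1g. Among all 38283 genes, 2654 had a higher mean than Cacna1h in delta cells, 15953 in alpha cells and 17505 in beta cells.

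The genes with patterns most like Cacna1h over the 15 samples, by Pearson correlation of log2(FPKM + 1), were Adcy2 (r = 0.996), Adcy8 (r = 0.992) and Accn1 (r = 0.991). Adcy2 and Adcy8 encode adenylate cyclases, and Accn1, now named Asic2, an acid-sensing ion channel. The points fall into delta samples and all others, which sets most of each r, and all 3 genes passed the filter through delta cells alone. Mean Adcy2 was 2.05 FPKM in delta and 0.0574 in alpha cells, and mean Adcy8 2.52 and 0.0223 FPKM, respectively.

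The other parts of the channel complex were counted from lists. Their counts stand beside the shares of all genes tested that were called, 7.66% for beta against alpha, 6.81% for delta against alpha and 14.7% for delta against beta cells. Genes whose mean reached 1 FPKM in some but not all types had to differ to some degree. Among the called genes, Cacna2d2 and Cacna2d3 passed the filter through delta cells alone, Gem, Cabp1, Hcn4 and Erc2 through beta and delta cells, and Cacng4, Cacnb1, Rem2, Ncs1 and Hcn3 through alpha and delta cells. The cytosolic beta subunits bring the pore to the membrane and shape its gating. Of 4 such genes, all tested, Cacnb3 was lower in beta cells than in alpha cells (log2 difference -1.91, adjusted p = 0.0185, limma), and Cacnb3 and Cacnb1 were higher in delta than in beta cells by 1.80 and 1.78 (adjusted p = 0.0118 and 0.00687, limma). The call of Cacnb3 against alpha cells was lost without beta sample 1 (adjusted p = 0.0523, limma). In the 6 samples with high ribosomal protein values, with 1 beta sample, Cacnb3 differed by -1.38 for beta against alpha and 1.02 for delta against beta cells. Cacnb1 differed there by 2.16 for delta against beta cells. In the 9 other samples these differences were -2.54, 2.16 and 1.61 (adjusted p = 0.00181, 0.000865 and 0.00324, limma). Cacnb2 had the highest levels in beta and delta cells, with means of 19.0 and 15.3 FPKM, and did not pass in any comparison. The median log2 differences of the 4 genes were -0.42 for beta against alpha, 0.29 for delta against alpha and 0.79 for delta against beta cells, where all genes tested had medians of -0.13, 0.13 and 0.30.

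The alpha2delta subunits are extracellular proteins that raise the number of high-voltage channels at the membrane. Of 3 tested of 4, Cacna2d2 was higher in delta cells, with means of 24.3 FPKM in delta, 0.711 in alpha and 0.335 FPKM in beta cells. The log2 difference was 3.61 against alpha (SE 0.524, adjusted p = 0.000264, limma) and 3.90 against beta cells (SE 0.558, adjusted p = 0.000186, limma). In the 6 samples with high ribosomal protein values both calls were lost, at 2.39 (adjusted p = 0.0575, limma) and 2.16 (adjusted p = 0.0621, limma), and in the 9 others the differences were 3.81 and 4.75. Cacna2d3 was higher in delta cells than in beta cells by 1.06 (adjusted p = 0.0153, limma). Cacna2d1 had means of 13.8, 29.3 and 13.2 FPKM in alpha, beta and delta cells and did not pass. Of the 8 gamma subunit genes Cacng4 alone was tested, and beta cells had less of it than alpha cells (log2 difference -1.72, adjusted p = 0.0359, limma). This call was kept in 9 of 15 fits that left out a sample (adjusted p from 0.0171 to 0.0906, limma). In the 9 samples with low ribosomal protein values the Cacng4 difference was -2.80 (adjusted p = 0.00129, limma). In the 6 others, with 1 beta sample, it was -1.08. The medians of the 3 alpha2delta genes in the order above were -0.24, 0.82 and 1.06.

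Among 13 genes of channel regulators, 8 were tested. Cabp1, a calcium-binding protein that regulates calcium channels, was higher than in alpha cells in beta (1.92, adjusted p = 0.000245, limma) and in delta cells (2.07, adjusted p = 3.35e-05, limma). Gem, a small GTPase that inhibits high-voltage channels, was higher in beta than in alpha cells (1.55, adjusted p = 0.0218, limma), although not without beta sample 4 (adjusted p = 0.0704). Rem2, a GTPase of the same family, and Ncs1, a neuronal calcium sensor, had log2 differences of -1.22 and -1.46 in beta against alpha cells (adjusted p = 0.0125 and 0.0089, limma) and were higher in delta than in beta cells by 1.91 and 2.22 (adjusted p = 0.000147 and 0.00012, limma). Dos, now named Cbarp, encodes a suppressor of calcium channels and was higher in delta cells by 2.22 than in alpha (adjusted p = 0.0257, limma) and by 2.72 than in beta cells (adjusted p = 0.00699, limma), and the former was kept in 9 of 15 fits that left out a sample (adjusted p from 0.00776 to 0.082). The Dos difference from alpha cells was 0.82 in the 9 samples with low ribosomal protein values (adjusted p = 0.546, limma) and 2.91 in the 6 others (adjusted p = 0.0607, limma), and it missed the threshold with median-ratio size factors (adjusted p = 0.0564, limma). Calm3, a calmodulin gene, was higher in delta cells than in beta cells by 1.27 (adjusted p = 0.0474), kept in 3 of 15 such fits (adjusted p from 0.0117 to 0.166). In a fit of alpha and beta cells alone, the calls of Rem2, Ncs1 and Gem for beta against alpha cells were lost (adjusted p = 0.101, 0.0903 and 0.0874, limma). In all, 4 of 8 genes were called for beta against alpha (2 higher, 2 lower; 7.66% of all genes tested), 2 for delta against alpha (6.81%) and 4 for delta against beta cells (14.7%), all higher in delta cells. The median log2 differences of the 8 genes were -1.05, 0.72 and 1.14 in the same order.

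Of 9 genes of the release site that bind or adjoin calcium channels, all tested, Erc2, an active zone scaffold, was higher than in alpha cells in delta (1.55, adjusted p = 0.00307, limma) and in beta cells (1.14, adjusted p = 0.0448, limma; kept in 4 of 15 fits without 1 sample, with adjusted p from 0.0171 to 0.157). The medians of the 9 genes were -0.13, 0.32 and 0.20. Of 14 related cation channel genes, 8 were tested. Hcn4, a pacemaker channel, and Scn9a, a sodium channel, were higher in delta than in alpha cells by 1.30 and 1.54 (adjusted p = 0.0245 and 0.0393, limma). These calls were kept in 8 and 7 of 15 fits without 1 sample (adjusted p up to 0.0625 and 0.112, limma). In the 9 samples with low ribosomal protein values the differences were 1.38 and 1.74 (adjusted p = 0.0642 and 0.134, limma). Scn9a differed by 0.89 in the 6 others. The Hcn4 call was lost with median-ratio size factors (adjusted p = 0.103, limma) and with quantile normalization (1.00, adjusted p = 0.125, limma), and the Scn9a call with no filter (adjusted p = 0.0607, limma) and with the ribosomal protein set as a covariate (adjusted p = 0.0511, limma). Hcn3 and Scn3a were higher in delta than in beta cells by 1.05 and 1.60 (adjusted p = 0.00941 and 0.0281, limma). These were kept in 15 and 9 of the 15 fits without 1 sample (adjusted p up to 0.0363 and 0.0932, limma). In the 6 samples with high ribosomal protein values, with 1 beta sample, Scn3a differed by 0.05 (adjusted p = 0.997, limma) and Hcn3 by 0.68 (adjusted p = 0.398, limma). The Hcn3 call was also lost with quantile normalization, at 0.57 (adjusted p = 0.0766, limma). The medians of the 8 genes were -0.30, 0.28 and 0.42.

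Markers of other cells that use these channels were low in most lists. The summed FPKM of 6 markers of stellate, smooth muscle and pericyte cells was at most 2.15 in any sample, and Col1a1 was listed at 0 in all samples. The sum of 3 skeletal muscle markers was at most 1.36, with Myh1 listed at 0 in all samples, and that of 5 immune markers at most 2.81. Glial and neuronal markers (4 genes) summed to between 0.727 and 6.94 FPKM in alpha, 0.822 and 3.52 in beta and 1.25 and 9.23 FPKM in delta cells, with Sox10 listed at 0 in all alpha and beta samples. The sum of 5 endothelial markers ranged from 1.47 to 2.88 FPKM in alpha, 0.619 to 3.34 in beta and 2.96 to 6.17 FPKM in delta samples. Duct markers (4 genes) summed to 25.3 to 172 FPKM in alpha, 8.56 to 24.2 in beta and 19.7 to 99.8 FPKM in delta cells, and acinar markers (5 genes) to 0.0651 to 53.0, 0.0283 to 5.24 and 1.70 to 417 FPKM. Within the duct list, Sox9, a transcription factor of duct cells, had means of 0.0023 FPKM in alpha, 0.0084 in beta and 1.29 FPKM in delta cells. It was higher in delta cells by 1.12 than in alpha and by 1.11 than in beta cells (adjusted p = 0.0182 and 0.0174, limma) and passed the filter through delta cells alone. Krt19, a keratin of duct cells, was at 1.97 and 0.276 FPKM in alpha and beta cells and listed at 0 in all delta samples. Ppy, the hormone of PP cells, was far higher than these, at 17728 to 41392 FPKM in alpha and 10857 to 48600 FPKM in delta samples. In beta samples it ranged from 16.9 to 98.1 FPKM. The part of PP cells and of the other cells named here in the levels of the pore subunit genes was not tested.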

How the data were processed

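RNA of sorted islet cells was amplified, sequenced as single reads of 50 bases and aligned to GRCm38 by the authors. The submitters' processing notes name TopHat2 2.0.8 and Cufflinks 2.2.1, and the paper's text gives another TopHat version. The authors deposited FPKM values per gene for 15 samples. Any scaling between libraries, the annotation release and the use of strand are not given in the sources used here. The authors' edgeR comparison used counts, which were not used here, so differences were tested on the FPKM values.

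Samples were grouped by their labels. limma 3.58.1 in R 4.3.3 (lmFit, eBayes with trend) was run on log2(FPKM + 1) in a single fit of the 15 samples with no covariate. Genes with a mean above 1 FPKM in at least 1 cell type were tested (14405 of 38283). P-values were two-sided and adjusted by Benjamini-Hochberg over all genes tested, with calls at 0.05. The fit was tested on simulated data.

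The genes named are the 10 members, the called genes with the largest differences of each list of partner genes, up to 4 per comparison, cell type markers, and the 3 genes correlating best with each member called in the F-test. Overlapping genes, Cacnb2 and Cacna2d1 were named after their values were seen. The members and lists were chosen with earlier results of these data known. Cbarp was found as Dos by its gene identifier. Some of the marker genes are not reported here.

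Sequences and coordinates are from GENCODE M21 (GRCm38). Read totals were inferred from the steps of single reads in genes with 1 transcript longer than 1000 nt (less 200 nt), accepted where the score was over 1.5 times the best of 20 jittered copies. With no totals for the other samples no floor of detection is given, and genes with a value of 0 are called listed at 0.

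Alternatives were other filters, a pseudocount of 0.1, median-ratio size factors, quantile normalization, a replicate block, the ribosomal protein set as a covariate, an adjusted p of 0.01, fits of only the 2 cell types compared, log2 ratios of mean FPKM and leaving out each sample. The limit of 50000 that splits the ribosomal protein sets and the fits within each set were chosen after seeing the data. Python 3.11.15 with numpy 2.4.6, pandas 2.3.3 and matplotlib 3.10.9 was used for the remaining steps.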

Additional observations from a re-analysis of the deposited data

Results flagged for a closer look

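In each cell type, a sample was listed here when its distance from the nearest other sample, relative to the whole range of the group, exceeded the 95% critical value of Dixon's test. Among 26 groups of values examined, 7 were listed. The critical value lists about 5% of groups of normally distributed values. Many groups here lie close to 0 FPKM, and a group with a single value above 0 is always listed, so the number listed is no comparison with chance.

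Alpha sample 5 had 3.33 FPKM of Cacna1c, where the next alpha sample had 1.34 FPKM. The same sample had 0.163 FPKM of Cacna1e, and the next alpha sample 0.0212 FPKM. Alpha sample 4 stood apart for Cacna1i, at 0.437 FPKM against 0.0198 FPKM in the next, and alpha sample 1 for Cacna1f, at 0.0139 FPKM where the other alpha samples were listed at 0. Beta sample 2 had 0.437 FPKM of Cacna1g, against 0.0289 FPKM in the next beta sample. Beta sample 1 had 0.00437 FPKM of Cacna1e, where the other beta samples were listed at 0. Delta sample 2 had 1.07 FPKM of Cacna1f and the next delta sample 0.365 FPKM. Neither Cacna1h nor Cacna1b had such a sample in any cell type.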

How the results depend on the processing

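The Cacna1h calls of delta against alpha and beta cells kept their direction and their call in each alternative fit, with log2 differences from 3.76 to 6.42 and from 3.78 to 7.11. The log2 ratios of mean FPKM, which have no test, were 6.94 and 8.87. Their adjusted p-values were highest, at 0.0319 and 0.0248, in the 6 samples with high ribosomal protein values, which include a single beta sample that was assumed to vary like the others. No call of a member, a listed partner gene or a gene correlating best with Cacna1h changed direction. Calls of the cell type markers were not followed in the alternatives.

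The number of members called in the F-test rose from 1 to 2 with a pseudocount of 0.1, with median-ratio size factors and with the ribosomal protein set as a covariate, and to 3 with no filter and with quantile normalization. For beta against alpha cells it fell from 1 to 0 with a filter of 0.5 or 2 FPKM, no filter, the replicate block, an adjusted p of 0.01, only the 2 cell types, and only the 9 samples with low ribosomal protein values. The adjusted p of Cacna1b was then 0.0509, 0.0561, 0.0862, 0.0874, 0.049 (against 0.01), 0.176 and 0.382. The count rose from 1 to 2 for delta against alpha cells with no filter and with only the 2 cell types. For delta against beta cells it rose to 2 with a filter of 0.5 FPKM and with quantile normalization. It also rose to 2 in the 9 samples with low ribosomal protein values, and to 3 with no filter. Where the F-test count rose in these fits, F-test calls over all genes rose too, from 2301 to at most 3212 (quantile normalization). For delta against beta cells, calls over all genes likewise rose from 2114 in each of the fits named. For delta against alpha cells they rose from 981 to 1121 with no filter but fell with only the 2 cell types. With no filter, 23792 genes were tested instead of 14405. Without 1 sample, members called ranged from 1 to 2 in the F-test (2 without beta sample 3 or delta sample 2), 0 to 1 for beta against alpha, 1 to 2 for delta against alpha (2 without beta sample 3) and 1 to 2 for delta against beta cells (2 without delta sample 2, where Cacna1g passed the filter with an adjusted p of 0.0303). The causes were not tested, except that filters change which genes are tested.

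Over all genes, calls for beta against alpha cells rose from 1104 to 2072 with median-ratio size factors and 1970 with quantile normalization, and fell to 461 at an adjusted p of 0.01, 407 with only the 2 cell types and 701 in the 6 samples with high ribosomal protein values, and ranged from 651 to 1698 without 1 sample. At an adjusted p of 0.01, calls fell from 2301 to 1210 in the F-test, from 981 to 567 for delta against alpha and from 2114 to 1045 for delta against beta cells. In the 6 samples with high ribosomal protein values they fell to 773, 153 and 728, and in the 9 others those for delta against alpha cells fell to 629. The median log2 difference of all genes was -0.13 for beta against alpha, 0.13 for delta against alpha and 0.30 for delta against beta cells, and within 0.02 of 0 with size factors.

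Correlations of deviations from the group means ranged from -0.152 to 0.281 over 13 pairs of samples with the same number (mean 0.0761) and from -0.352 to 0.339 over 61 pairs with different numbers (mean -0.0161). All 3 pairs of number 2 lay between 0.268 and 0.281, but not every pair was over 0.1, so the numbers were not taken to pair the samples. With the replicate block, Cacna1b was 1.47 higher in beta than in alpha cells (adjusted p = 0.0874) and the calls of Cacna1h were kept. The listed partner genes and the genes correlating best with Cacna1h had 29 calls, cell type markers left out. Of these 29, 5 were lost with the block. They were Cacng4 for beta against alpha (adjusted p = 0.0883, limma) and Hcn4 and Scn9a for delta against alpha cells (0.065 and 0.1). Scn3a and Calm3 were lost for delta against beta cells (0.0511 and 0.0522). With only the 2 cell types compared, 6 of the 29 were lost: Cacng4, Erc2, Gem, Ncs1 and Rem2 for beta against alpha (adjusted p = 0.111, 0.182, 0.0874, 0.0903 and 0.101) and Calm3 for delta against beta cells (0.063). Of the same calls, 12 were lost at an adjusted p of 0.01, 0 to 3 with each other filter, pseudocount, scaling or covariate, 1 to 6 without 1 sample, and 6 in the 9 samples with low ribosomal protein values, and 24 of the 27 that could be run were lost in the 6 others.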
